A study of Mus musculus with 66 samples.

Results

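The regions described here are stretches of prefrontal cortex chromatin that carried H3K36me3 islands in most pools of mice, lay outside the protein-coding genes of GENCODE vM21, and carried H3K9me3 islands in fewer than 11 of 22 pools at any window. An island is a cluster of 200-bp windows with more immunoprecipitated (ChIP) reads than the SICER caller expects by chance. Members were runs of windows on chromosomes 1 to 19 covered by listed islands in at least 16 of the 22 H3K36me3 libraries, overlapping no such gene body (GRCm38) and no window listed in 11 or more of the 22 H3K9me3 libraries. The rule found 590 members covering 574.4 kb, out of 18768 autosomal H3K36me3 runs. Free of H3K9me3 means here only that this limit was met: at their most often listed window, 60 members had an H3K9me3 island in no library, 306 in 1 to 5 and 224 in 6 to 10. The other runs were 1339 gene-body regions free of H3K9me3 by the same limit and 16839 regions that carried both marks. Since listed islands chose the members, their presence in the lists is a description and was not tested.

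The libraries came from male and female DBA/2J mice, an inbred strain, given ethanol at 4 g/kg by gavage as a 25% w/v solution, or water, between postnatal day (PND) 29 and PND 42. Tissue of the prefrontal cortex was taken 24 h after dosing ended and pooled from 3 mice, giving 5 water pools and 6 ethanol pools of each sex. Each of the 22 pools gave an H3K36me3, an H3K9me3 and an input library, 66 libraries in all. Pools are bulk tissue, so a mark carried by fewer cells and a weaker mark in every cell cannot be told apart, and animals within a pool cannot be separated.

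H3K36me3 is deposited by SETD2 as RNA polymerase II transcribes, and in most genes it builds up along the body towards the 3′ end. Outside coding genes it can mark long noncoding transcripts, readthrough past coding genes, or transcription that no annotation lists. H3K9me3 marks heterochromatin and silenced repeats, so intergenic H3K36me3 without H3K9me3 is where unannotated transcription would be looked for. Input DNA is sheared chromatin sequenced without an antibody, and it shows how many reads a place collects when no mark is selected.

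The H3K36me3 libraries held 1.70 M to 4.80 M ChIP reads (M, 1e6 reads) in 19618 to 61911 listed islands. The lists were not filtered on the false discovery rate (FDR), and between 26.8% and 92.2% of the islands of a library had an FDR above 0.01. H3K36me3 runs lay over 3 of 10 neuronal marker genes, Syt1 and Rbfox3 among them, and over none of 8 marker genes of other tissues. Snap25, Camk2a, Slc17a7, Gad1, Nefl, Thy1 and Stmn2 had none. No run lay over any of the 5 oligodendrocyte, 4 astrocyte or 3 microglial markers, and 1 of 3 vessel markers (Flt1) had one. Of the neuronal markers without a run, Nefl and Thy1 had an island with an FDR of at most 0.01 in no library, and of the microglial markers Cx3cr1 had one in 11. Of the markers of other tissues, Ins2 had such an island in 4 libraries, Myh6 in 2 and Umod in 1, beside 3 for the neuronal marker Snap25. The cell types that carried the intergenic regions cannot be told apart.

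Members were short and most were strongly repetitive. Their median length was 800 bp, with a range from 200 to 5400 bp. A run of 10 bases of alternating C and A, or T and G, on either strand (ACACACACAC, CACACACACA, GTGTGTGTGT or TGTGTGTGTG, overlapping matches allowed) was present in 497 members, or 84.2%. Background was measured on 156061 tiles of 800 bp from the same coding-free and H3K9me3-free autosomal sequence, of which 14.5% held the run. At the same length of 800 bp the shares were 93.5% of 138 members, 81.3% of 252 gene-body regions and 15.8% of 670 regions with both marks. The run was therefore found in most H3K36me3 regions without H3K9me3, inside genes and outside them.

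Tandem arrays, in which a stretch of at least 20 bases and at least 1 unit matches the bases 1 unit before it, with units of 2 to 60 bases, made up at least 25% of the bases of 125 members (21.2%). At a length of 800 bp this was so for 13.04% of members, 19.4% of gene-body regions, 13.1% of regions with both marks and 0.59% of the background tiles. All 3 classes of H3K36me3 runs stood above the tiles and members were not the highest. The tiles exclude coding genes and H3K9me3 windows at the limit, so they match members only and are no like background for the other classes. At 800 bp a median of 83.7% of a member's bases was masked as repeat in the reference, compared with 75.1% in gene-body regions, 97.9% in regions with both marks and 25.4% in tiles. The median GC content was 43.6% in members of 800 bp and 41.4% in the tiles. These shares describe the reference genome of C57BL/6J mice, and the length of each repeat in DBA/2J mice was not measured.

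**Figure D1:**
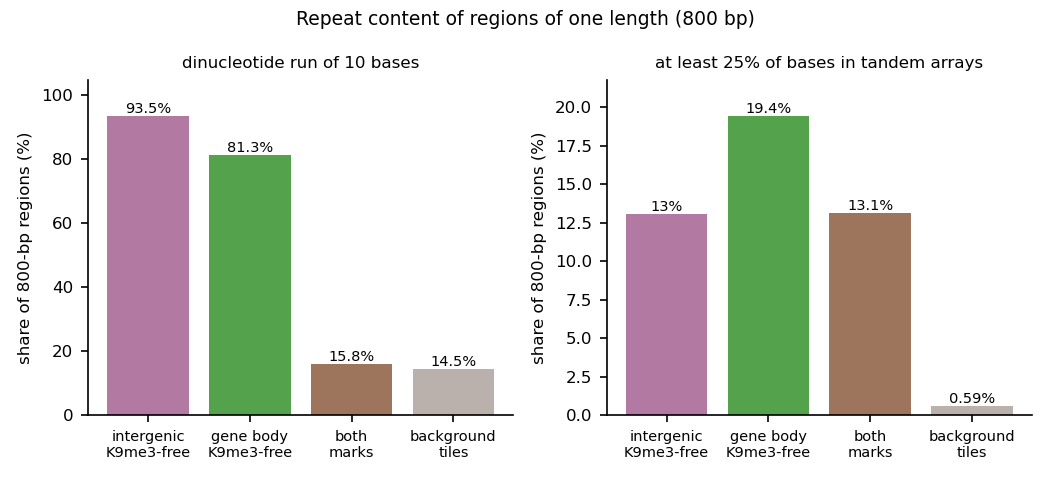
Share of 800-bp regions (y axis, percent) that held a 10-base dinucleotide run (left) or had at least 25% of their bases in tandem arrays (right), for 138 intergenic members, 252 gene-body regions, 670 regions with both marks and 156061 background tiles. Members and gene-body regions stand far above the tiles for the dinucleotide run (93.5% and 81.3% against 14.5%), and regions with both marks do not (15.8%). The tiles exclude coding genes and H3K9me3 windows at the limit, so they match members only.

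The following 4 stretches show what the members hold. All are 300 bases of the plus strand of GRCm38 as RefSeq gives it, 5′ to 3′. The first is the dinucleotide array of the member in the lincRNA gene Gm39317, one of the longest members, with 10-base runs in capitals. The next 2 are members whose longest array is in capitals, with a unit of 37 and 20 bases respectively. They lie 2428 bp beyond the 3′ end of Zfc3h1 and inside the noncoding gene 2410003L11Rik. The last is the centre of a member in the lincRNA gene Gm26848 with no tandem array, shown because its enrichment was among the highest, with a 10-base run in capitals.
Gm39317, chr9:32355001-32355300: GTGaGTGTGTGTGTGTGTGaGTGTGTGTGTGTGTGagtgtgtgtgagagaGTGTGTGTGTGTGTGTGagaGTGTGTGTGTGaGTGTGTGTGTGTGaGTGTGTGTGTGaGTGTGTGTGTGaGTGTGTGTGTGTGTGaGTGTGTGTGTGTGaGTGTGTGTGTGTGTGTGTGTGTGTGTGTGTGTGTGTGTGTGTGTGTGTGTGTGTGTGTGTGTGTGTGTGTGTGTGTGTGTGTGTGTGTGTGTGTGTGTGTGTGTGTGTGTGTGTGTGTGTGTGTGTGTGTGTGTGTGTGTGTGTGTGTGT
beyond Zfc3h1, chr10:115435477-115435776: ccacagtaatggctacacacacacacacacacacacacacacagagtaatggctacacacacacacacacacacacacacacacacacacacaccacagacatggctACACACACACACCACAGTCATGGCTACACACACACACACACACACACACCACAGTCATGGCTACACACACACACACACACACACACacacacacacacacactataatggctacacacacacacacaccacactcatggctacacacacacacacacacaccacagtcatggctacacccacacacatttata
2410003L11Rik, chr11:97621323-97621622: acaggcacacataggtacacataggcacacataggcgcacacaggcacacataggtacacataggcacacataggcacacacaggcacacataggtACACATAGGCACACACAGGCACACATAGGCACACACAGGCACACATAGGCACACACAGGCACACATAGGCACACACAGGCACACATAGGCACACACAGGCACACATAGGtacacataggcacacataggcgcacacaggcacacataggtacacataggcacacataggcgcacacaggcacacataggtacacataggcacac
Gm26848, chr17:6456151-6456450: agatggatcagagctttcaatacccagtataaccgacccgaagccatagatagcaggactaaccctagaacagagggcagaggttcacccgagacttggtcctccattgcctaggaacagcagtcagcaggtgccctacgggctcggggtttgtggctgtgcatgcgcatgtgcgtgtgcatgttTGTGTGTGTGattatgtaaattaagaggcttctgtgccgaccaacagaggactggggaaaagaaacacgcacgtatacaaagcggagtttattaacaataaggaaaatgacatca

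The dinucleotide array of the Gm39317 member filled 1915 of its 3000 bases. In the Zfc3h1 member the repeated unit was itself built around a C and A dinucleotide run, so it counts both as a dinucleotide and as a longer array. The 2410003L11Rik member held no 10-base dinucleotide run. The Gm26848 member had only 20 bases in such runs out of 1400 bases. Both the Zfc3h1 and the Gm26848 member were among the 5 most enriched members of at least 1 kb, so that group held repeat arrays as well as sequence without them.

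Enrichment over input was low. For each library, fold over input was taken as ChIP reads over input reads scaled by that library's own constant, with 1 read added to each. The median member had a fold of 1.18 over the 22 libraries, with a range from 0.838 to 2.31, and 44 members had a median fold below 1. Only 19 members reached a median fold of 1.5. An island with an FDR of at most 0.01 lay over the median member in 4 of 22 libraries and over the median gene-body region in 11. In 16 or more libraries this was so for 5 members (0.847%) and 262 gene-body regions (19.6%).

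**Figure D2:**
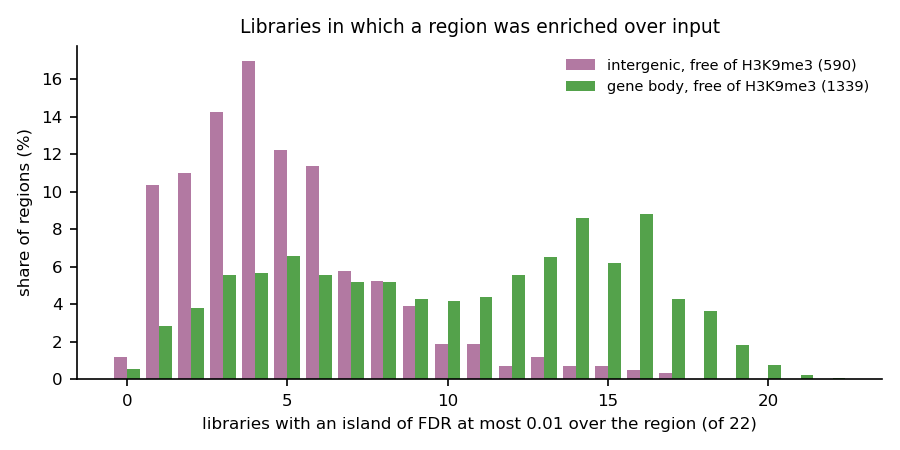
Share of regions (y axis, percent) by the number of libraries, out of 22, in which an island with an FDR of at most 0.01 lay over them (x axis), for the 590 members and the 1339 gene-body regions free of H3K9me3. Members pile up at low numbers (median 4 libraries) and gene-body regions spread further to the right (median 11).

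Members were compared with gene-body regions within each pool, which keeps the library's own depth and scaling. Both classes were chosen by listed islands, which depend on ChIP reads, so the ChIP reads in the fold were part of the rule. Input reads were not, but they were counted only under islands chosen by ChIP reads, so that choice can shape input density too. The differences in fold and in input density are therefore descriptions of regions so chosen, and their p-values are no independent support. Each pool was scored only on the regions in which it had an island. The fold and the input density share input reads and are not independent of each other. The median fold of members was below that of gene-body regions in 22 of 22 pools, with a mean log2 difference of -0.25 ± 0.12 (SD, n = 22 pools, permutation test by sign flips, two-sided, adjusted p = 2e-05 over 4 comparisons). Input reads per kb under islands were higher in members in 22 of 22 pools, with a mean log2 difference of 0.38 ± 0.12 (SD, n = 22, same test, adjusted p = 2e-05). The unadjusted p of 1e-05 is the smallest that 100000 resamples can give. Members had a median of 35.6 input reads per kb over the libraries, and gene-body regions had 27.2. ChIP reads per kb were closer, at 40.0 and 37.7.

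Against regions with both marks, the members' enrichment did not pass the test: the mean log2 difference was 0.04 ± 0.17 (SD, n = 22, same permutation test, adjusted p = 0.322), with members higher in 11 pools and lower in 11. The input density of members was above that of regions with both marks in 21 of 22 pools (mean log2 difference 0.29 ± 0.19, SD, n = 22, same permutation test, adjusted p = 2.67e-05). ChIP reads were part of the rule here too, so the comparisons of fold and of input density are again descriptions.

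**Figure D3:**
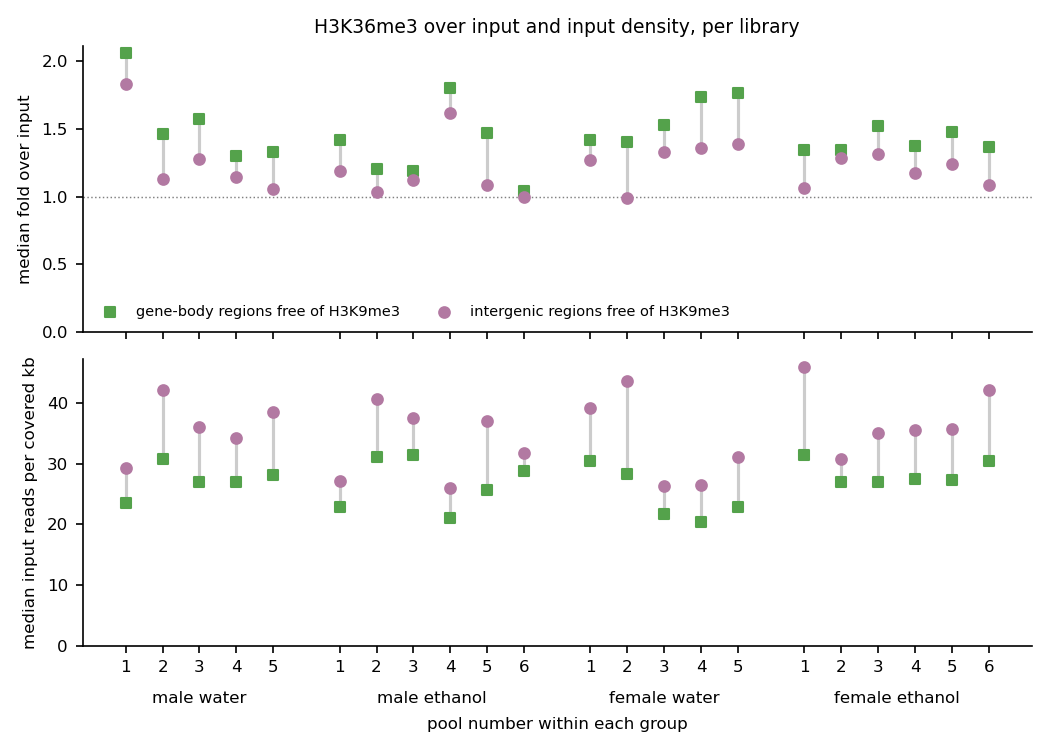
Median fold over input (top) and median input reads per covered kb (bottom) for the 590 members (circles) and 1339 gene-body regions (squares) in each of the 22 H3K36me3 libraries, by group and pool number. Grey lines join the 2 classes of a library. In each library the circle is below the square in the top panel and above it in the bottom panel.

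The level of members differed widely between pools of 1 group. Median fold over input was 1.83, 1.14, 1.28, 1.14 and 1.05 in the 5 male water pools. In the 6 male ethanol pools it was 1.19, 1.03, 1.121, 1.62, 1.09 and 0.996. The 5 female water pools had 1.27, 0.988, 1.33, 1.36 and 1.39, and the 6 female ethanol pools had 1.07, 1.29, 1.31, 1.18, 1.24 and 1.09. Male water pool 1 stood highest and the groups overlapped. The number of members listed at all was also uneven: 84 of 590 in male ethanol pool 1, 179 in male ethanol pool 4 and 81 in female water pool 4, beside 364 to 580 in the other 19 pools. Each pool's median fold was taken over its own listed members, so the values above rest on different sets of members.

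Members with higher input density had lower enrichment (Spearman's rho -0.39 across 590 members), a description, since both values use the same input reads and members of 1 genome are not independent. Input density was higher in members with a larger masked share (rho 0.44) and a larger dinucleotide content (rho 0.30). For enrichment and dinucleotide content rho was -0.0006. Within libraries, the 497 members with a dinucleotide run had 36.8 input reads per kb in the median library and the 93 without had 28.9, and the first group was higher in 22 of 22. Their median folds were 1.17 and 1.21.

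**Figure D4:**
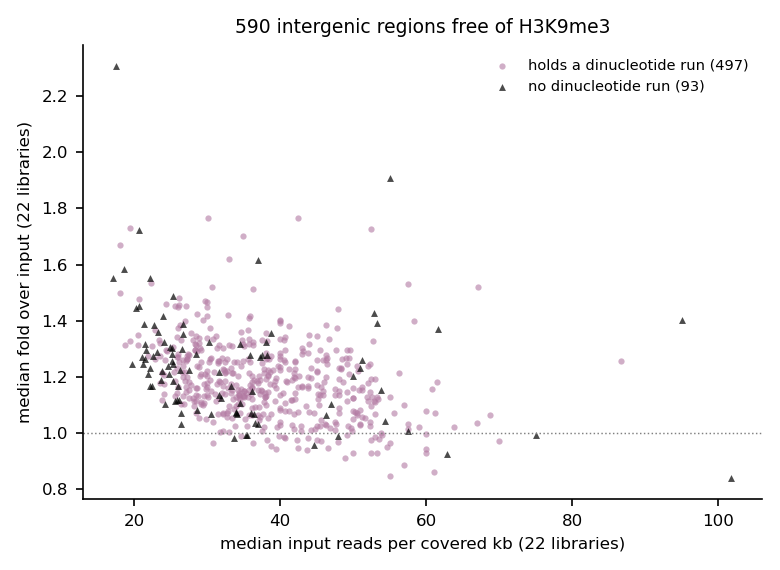
Median fold over input (y axis) against median input reads per covered kb (x axis), over 22 libraries, for each of the 590 members, with circles for the 497 that held a dinucleotide run and triangles for the 93 that did not. Most members lie between a fold of 1 and 1.5, and fold falls as input density rises (Spearman's rho -0.39).

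Most members, like most background tiles, lay outside annotated noncoding genes. An annotated noncoding gene, pseudogenes left out, overlapped 78 members, or 13.2% (95% Wilson interval 10.7% to 16.2%, counting error only). In the background 11.5% of 1560605 tiles overlapped one (the sequence features above used 1 tile in 10). Long noncoding genes lay over 77 members (13.1%, beside 10.9% of tiles) and within 5 kb of 122 (20.7%, beside 14.5%). The 3′ end of a coding gene was within 5 kb of 53 members (8.98%, beside 5.01% of tiles), and a 5′ end was within 5 kb of 40 (6.78%, beside 5.62%). Longer members reach further, and among the 138 members of the tiles' own length, 800 bp, the shares were 7.25% (10 members) for the 3′ end and 4.35% (6 members) for the 5′ end, so the second fell below that of the tiles. At that length 15.2% overlapped a noncoding gene and 21.7% lay within 5 kb of a long noncoding gene. These shares rest on positions and have no replicates. Members near a coding 3′ end had a median fold of 1.21 in the median library and the other members 1.20, and the first was higher in 18 of 22 libraries. Members in noncoding genes and those outside both had 1.19, with the first higher in 14 of 22.

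In all, 72 genes that GENCODE vM21 gives as noncoding held members: 50 lincRNA, 12 processed transcript, 9 antisense and 1 sense overlapping gene. RefSeq gives Tctn2 and Trerf1 among them as coding. Gm26848, a lincRNA gene on chr17:6314199-6493180, held the most member bases, 6800 in 4 members, whose median folds ran from 1.096 to 1.77. Gm26901 (chr1:7349406-7397869) held 1 member of 4600 bp with a fold of 1.04, enriched in 4 libraries. Zmiz1os1, antisense to Zmiz1, held 3 members with folds from 1.07 to 1.34, and 2 of these also lay in the lincRNA gene Gm26660. Gm39317, beside the potassium channel gene Kcnj5, held the array shown above, with a fold of 1.25. AC165153.1 (2 members), AC157598.1 (2 members) and Platr26 (1 member) held folds between 1.05 and 1.26. Of the 72 genes, Gm26848 and Tctn2, described below, held a member with a fold above 1.5.

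A list of brain and imprinted noncoding genes held few members. Of 44 names, 39 were found in the annotation (5 of them annotated as coding), and 2 held a member. By the rule, those 5 and Ftx, on chromosome X, could not hold a member. Stretches that other listed genes share with coding genes were barred too, and no expected number was computed. Islands lay over 8 of the 39 in all 22 libraries. The runs over these 8 genes mostly carried H3K9me3 too, as did 16839 of all 18768 autosomal runs. Snhg14, a long imprinted transcript, held 33 such runs, Sox2ot 3, A330008L17Rik 3 and A230006K03Rik 1, and none of these 4 held a member. C130071C03Rik, a lincRNA gene near the transcription factor gene Mef2c, held chr13:83786201-83787600, with a median fold of 1.22. Its folds were 1.62, 1.125, 1.38, 1.47 and 1.503 in the 5 male water pools and 0.919 to 1.29 (median 1.17) in the 4 male ethanol pools with an island. In females the folds were 1.06, 1.09, 1.095 and 1.95 in the 4 water pools with an island and 0.948 to 1.35 (median 1.22) in 5 ethanol pools, so the female medians were 1.09 and 1.22 and not lower with ethanol. The groups overlapped in both sexes, and the folds of this member were not tested. B230323A14Rik, an antisense gene, held chr9:69809401-69810800, with a median fold of 1.30 and an enriched island in 7 libraries. Meg3, a maternally expressed imprinted lincRNA, had islands in 13 libraries, all 13 of them with an FDR of at most 0.01, and so fell short of the 16 lists the rule needed. Malat1 and Neat1, abundant nuclear noncoding RNAs, had islands in 1 and 8 libraries. No island of any library lay over 13 of the 39 genes.

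In RefSeq, 19 of the 590 members overlapped coding genes, which in GENCODE vM21 they did not. The most enriched was chr5:124612401-124614200, in Tctn2, a gene for a protein of the ciliary transition zone, which GENCODE vM21 gives as a processed transcript. Its folds in the male water pools were 1.75, 1.69, 1.75, 1.49 and 1.65, and an enriched island lay over it in 15 libraries. The lowest fold in the 17 libraries with an island there was 1.20, in male ethanol pool 3. Another 5 of the 19 were the members in Gm2808 and Gm29721 on chromosome 17.

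That part of chromosome 17 held the largest group of neighbouring members, 12 within chr17:6372801-6632200, covering 18000 bp. It holds the pseudogenes Tmem181b-ps and Tmem181c-ps and the Dynlt1 genes, which encode dynein light chains and lie there in several copies. How alike the copies are was not measured, and the read filters for H3K36me3 are not stated. Reads may therefore not be assigned to 1 copy with certainty. Only 5 of the 12 held a dinucleotide run. Median folds ran from 1.096 to 1.77, and input density was low for the members, with a median of 25.4 reads per kb. The longest member, chr17:6625201-6630600, overlapped Tmem181c-ps, had a median fold of 1.45 and an enriched island in 17 libraries. The next group was 9 members within chr6:114500801-114608400, between Hrh1, the histamine H1 receptor gene, and Atg7, an autophagy gene. No annotated noncoding gene overlapped these members, and 8 of the 9 held the dinucleotide run. Chromosomes 17 and 5 had the most members per length, 4.63 and 4.28 per 10 Mb, and chromosome 7 the fewest, 1.38.

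Only 6 regions met the same rule when H3K36me3 islands were limited to an FDR of at most 0.01. Among those within members were chr17:6445001-6445400 in Gm26848, chr17:6627201-6628600 in Tmem181c-ps, chr6:114556201-114556600 and chr8:55370201-55370400, while no member overlapped chr3:153921801-153922200. The chromosome 6 member, chr6:114556201-114557200, had folds from 1.48 to 2.97 in male water pools and from 1.09 to 2.58 in male ethanol pools. It had an island in all 22 libraries and a fold above 1 in each of them.

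Among members of at least 1 kb, the 5 highest median folds were 1.73 in Gm26848 (chr17:6455601-6457000), 1.72 at chr12:21555601-21556600, 1.70 beyond Zfc3h1 (chr10:115435201-115436200), 1.67 in Tctn2 and 1.62 at chr6:114556201-114557200. The lowest folds lay below 1, where scaled input reads outnumbered ChIP reads. The lowest were chr2:49607801-49608800, near the kinesin gene Kif5c (0.847), chr9:46964601-46965600 in the lincRNA gene Gm47153 (0.885) and chr11:6648601-6650000 near Ramp3 (0.912). The Kif5c member held 39, 80, 48, 35 and 67 input reads in the male water pools, and 55.0 input reads per kb in the median library.

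Input reads were densest in 5 members. These were chr6:47754201-47754400 with 102 input reads per kb, chr10:83699401-83699600 with 95.0, chr8:3556201-3556400 with 86.7, chr7:45954601-45955200 with 75.0, and chr6:148604601-148605200 with 70.0. Their folds were 0.838, 1.40, 1.26, 0.991 and 0.971. The longest members after the one in Tmem181c-ps were chr12:8630201-8635000 (4800 bp), the Gm26901 member chr1:7389201-7393800 (4600 bp), chr5:30099401-30102600 (3200 bp, 983 bp beyond the 3′ end of 3110082J24Rik) and the Gm39317 member. Folds of the first 3 of these were 0.964, 1.04 and 1.03.

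The members just inside the threshold were close to the regions just outside. The 203 members whose best window was listed in 16 libraries had a median fold of 1.22 and 35.8 input reads per kb, and the 190 regions at 15 libraries, just outside, had 1.21 and 32.1. The 30 members at 10 H3K9me3 lists had a median fold of 1.124, and the 38 regions at 11 lists had 1.14.

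Ethanol and water pools were compared at the level of the library first. Each median fold covered only the members that the pool listed, so pools were compared on different sets of members. In males, the median log2 fold of members was 0.21 ± 0.25 (SD, n = 6) with ethanol and 0.34 ± 0.32 (SD, n = 5) with water (exact permutation test, two-sided, p = 0.437, adjusted p = 0.506 for each of 4 such tests). In females it was 0.25 ± 0.13 (SD, n = 6) and 0.33 ± 0.20 (SD, n = 5), with p = 0.446 by the same exact permutation test. Without male water pool 1 the male difference turned from -0.12 to 0.01, and without female water pool 2 the female difference was -0.16 (exact permutation test, unadjusted p = 0.0381). Settings other than leaving out a single pool gave -0.299 to -0.0802 in males and -0.0861 to -0.0398 in females. These included dropping the pools that listed few members and keeping only members with an island in every other list. The number of members with an enriched island was 25, 81, 97, 119, 93 and 8 in male ethanol pools, and 470, 84, 165, 96 and 71 in male water pools, and the groups overlapped (means 70.5 and 177, exact permutation test, p = 0.130). Without male water pool 1 the difference of -106.7 members shrank to -33.5 (exact permutation test, p = 0.286). In females the means were 124 and 162 (exact permutation test, p = 0.506). Across the 22 libraries, the share of listed island bases in gene bodies was not related to the members' enrichment at a p of 0.05 (Pearson's r = 0.09, permutation p = 0.699, and r = 0.18 without the 2 libraries farthest from the median share, permutation p = 0.459, Spearman's rho = 0.0017, permutation p = 0.996). Within sexes r was 0.28 in 11 male libraries (permutation p = 0.408) and -0.29 in 11 female libraries (permutation p = 0.389).

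Reads were then tested region by region over all autosomal runs with an island in every library of the comparison, with edgeR's quasi-likelihood test and Benjamini-Hochberg adjustment over all runs tested. Neighbouring runs are not independent of each other. Because 3 pools listed few members, only 16 members entered the male test and 30 the female test. Since no run passed an adjusted p of 0.05, calls are given at an unadjusted p of at most 0.05 and read against the share of all runs called. In males, 3 of 16 members were called, all 3 lower with ethanol. Over all 7098 runs tested, 5.42% were called and 2.97% were lower. After adjustment 0% were called (4 runs by DESeq2, none of them a member), and the smallest adjusted p of a member was 0.568. The median log2 difference was -0.26 over the 16 members and -0.22 over the 43 gene-body regions tested, of which 10 were called. These values depended on the scaling between libraries. Without TMM factors the median over all runs moved from 0.005 to 0.18, and 7.92% of runs were called higher and 0.465% lower. The members' median was then -0.08, with 1 of 16 called. The share called also depended on which members entered. With missing islands counted as 0, 2 of 574 members were called, all lower, beside 262 of 18395 runs.

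The male member of smallest p was chr6:114608001-114608400, between Hrh1 and Atg7. Its normalised ChIP reads, in counts per 1e6 (CPM) after TMM scaling, were 19.5, 28.6, 29.9, 11.7 and 28.9 in the 5 water pools. In the 6 ethanol pools they ran from 9.14 to 14.8, with a median of 10.03, so 1 water pool lay inside the ethanol range and the other 4 above it. The log2 difference was -1.07 ± 0.26 (SE, edgeR, adjusted p = 0.568). Input reads of the same region showed the same order, with 14.9, 23.7, 31.3, 6.55 and 29.1 CPM in water, and 6.01 to 13.6 (median 8.42) in ethanol. The log2 difference of input reads was -1.25 ± 0.34 (SE, edgeR, adjusted p = 0.967). Fold over input was 1.36, 1.103, 0.863, 1.42 and 0.861 in water and 0.989 to 1.53 in ethanol, and the groups overlapped. On the log2 ratio of ChIP to scaled input reads, tested with limma, the difference turned to 0.05. On average, ChIP and input reads of this region were both lower with ethanol, and their ratio was not.

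The member in Tmem181c-ps, chr17:6625201-6630600, had 158.8, 164.7, 169.4, 151.5 and 137.1 CPM of ChIP reads in male water pools, and 67.7 to 146.9 (median 97.9) in male ethanol pools. One ethanol pool lay within the range of the water pools. The log2 difference was -0.59 ± 0.17 (SE, edgeR, adjusted p = 0.675), and that of input reads was -0.17 ± 0.15 (SE, edgeR, adjusted p = 0.986). Islands covered 4400 to 5400 bp of this member in water pools and 3200 to 5400 bp in ethanol pools, and reads outside islands were not counted. Per covered base, the difference was -0.34 ± 0.11 (SE, edgeR, adjusted p = 0.631). Fold over input was 1.69, 1.74, 1.70, 1.46 and 1.37 in water and 0.998 to 1.88 in ethanol, and the groups overlapped.

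The third was chr17:6473601-6476600 in Gm26848, with 68.4, 79.1, 64.8, 79.9 and 88.9 CPM of ChIP reads in male water pools and 38.6 to 68.5 (median 58.8) in male ethanol pools. Of the ethanol pools, 2 lay within the range of the water pools. The log2 difference was -0.43 ± 0.15 (SE, edgeR, adjusted p = 0.798). Islands covered 2400 to 3000 bp of it in water pools and 800 to 3000 bp in ethanol pools. Per covered base the direction turned, to 0.09 ± 0.18 on the log2 scale (SE, edgeR, adjusted p = 0.970). Its input reads differed by -0.09 ± 0.18 (SE, edgeR, adjusted p = 0.996).

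**Figure D5:**
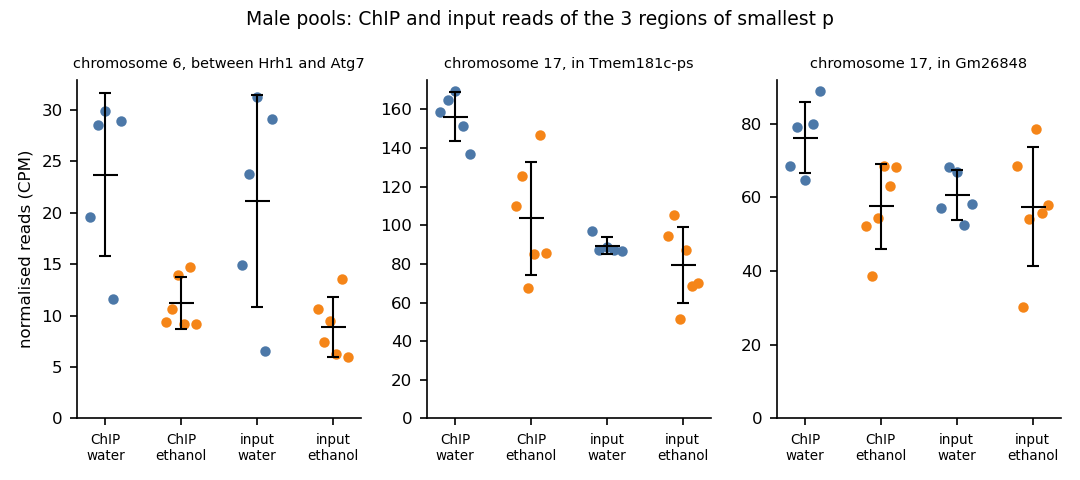
Normalised ChIP and input reads (y axis, CPM) of the 3 members of smallest p in males, in 5 water pools (blue) and 6 ethanol pools (orange), with the mean and SD as bars. ChIP reads are lower with ethanol in all 3, and in the chromosome 6 member between Hrh1 and Atg7 the input reads are lower too.

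Leaving out the male ethanol pools numbered 1 and 4, which listed 84 and 179 members, a setting added after seeing the data, raised the members tested to 211. Of these, 16 were called and all 16 were lower with ethanol, beside 4.63% of 10025 runs called and 2.61% lower. The median log2 difference of the 211 was -0.11, compared with 0.005 over all runs and -0.15 over 398 gene-body regions. Input reads of the same members went the other way, with 15 called, 13 of them higher with ethanol (3.96% of runs called and 2.07% higher), and a median log2 difference of 0.10 in members and 0.11 in gene-body regions. Without male water pool 1 as well, 14 of 219 members were called for ChIP reads, 12 lower and 2 higher (4.4% of 11149 runs), and 19 for input reads (4% of 11136 runs). In the 16-member test, input reads called 2 members, 1 higher and 1 lower (4.09% of 7093 runs, 0% after adjustment).

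In females no member of 30 was called at an unadjusted p of at most 0.05 by edgeR or by DESeq2, while 3.5% of 7665 runs were (0% after adjustment, 2 runs by DESeq2). The smallest p belonged to chr6:114500801-114501200, on the Hrh1 side of the chromosome 6 group, and its reads differed by 0.63 ± 0.30 on the log2 scale (SE, edgeR, adjusted p = 0.987). Its ChIP reads were 14.2, 12.7, 25.8, 12.1 and 14.5 CPM in the 5 water pools and 11.3 to 38.6 (median 24.1) in the 6 ethanol pools, and the groups overlapped. The member in 2410003L11Rik had 25.5, 36.5, 26.5, 13.4 and 19.8 CPM in water pools and 21.05 to 49.9 (median 31.9) in ethanol pools, and the groups overlapped. Its reads differed by 0.44 ± 0.24 on the log2 scale (SE, edgeR, adjusted p = 0.987). Without female water pool 4, 2 of 153 members were called, beside 3.37% of 9985 runs. Input reads called 1 of 30 members in females, beside 3.5% of 7660 runs, and it was the member in 2410003L11Rik (log2 difference 0.39 ± 0.18, SE, edgeR, adjusted p = 0.997).

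For the difference between the sexes in the response to ethanol, 7 members had an island in all 22 libraries. Of these, 3 were called for the interaction, all 3 with a more positive difference in females. Over all 5399 runs, 6% were called and 2.78% in that direction (0% after adjustment, 4 runs by DESeq2, none of them a member). The 3 members called were chr11:74376201-74377600 near Rap1gap2 (interaction 0.61 ± 0.25 on the log2 scale, SE, edgeR, adjusted p = 0.798), chr17:6473601-6476600 in Gm26848 (0.54 ± 0.24, adjusted p = 0.798) and chr6:114500801-114501200 (1.16 ± 0.52, adjusted p = 0.798). The last had 53.8, 13.9, 14.9, 26.6 and 14.8 CPM of ChIP reads in the male water pools and 9.42 to 26.3 (median 15.1) with ethanol, so male water pool 1 stood far above the rest. Without that pool its male log2 difference went from -0.50 to -0.07, and its interaction was 0.72 ± 0.47 (SE, edgeR, adjusted p = 0.924) and no longer called. Each of the 3 calls was lost when 1 or another pool was left out. In each of the 3, the water and ethanol pools overlapped in both sexes. In males the member near Rap1gap2 had 45.2, 43.2, 69.7, 36.6 and 43.7 CPM of ChIP reads with water and 24.1 to 47.2 (median 38.4) with ethanol, and in females 40.6, 49.1, 43.2, 27.9 and 34.3 with water and 39.6 to 52.6 (median 46.6) with ethanol. Per covered base the Gm26848 member's interaction was 0.06 ± 0.24 (SE, edgeR, adjusted p = 0.984). Without the 3 pools that listed few members, 3 of 86 members were called (4.19% of 7368 runs). Between females and males, 0 of 7 members were called at an unadjusted p of at most 0.05 by edgeR and 0 by DESeq2. Over all 5399 runs, 4.85% were called (0% after adjustment, 4 runs by DESeq2, none of them a member). Without those 3 pools 0 of 86 members were called (5.16% of runs). The member of smallest p there, chr6:114556201-114557200, differed by -0.18 ± 0.11 (SE, edgeR, adjusted p = 0.998), and chr6:114590401-114591200 by 0.10 ± 0.13 (SE, edgeR, adjusted p = 0.998).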

How the data were processed

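Prefrontal cortex pools were profiled by ChIP-seq for H3K36me3 and H3K9me3, each beside an input library. The authors deposited SICER island lists, with whole counts of ChIP and input reads per island, a p-value, an FDR (q-value) and a fold ratio over scaled input. Their notes name FastQC, cutadapt, Bowtie2 2.4.1 and SICER on GRCm38 (mm10), with windows of 200 bp. Blacklisted and multiply mapped reads were removed for H3K9me3, and for H3K36me3 the read filters are not stated. Input reads were known only under islands.

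Reads were shared among regions by island overlap. ChIP reads inside listed islands ran from 1.70 M to 4.80 M per H3K36me3 list, which is not the sequencing depth. Intervals cover counting error only. Regions with an island in every compared library were tested with edgeR 4.0.16 (quasi-likelihood, TMM factors), and DESeq2 1.42.0 and limma 3.58.1 were alternatives. Library values were tested by exact permutation. Scripts were tested on simulated data. Replicates were separate pools, and equal pool numbers did not pair them (correlations of deviations from -0.103 to 0.0837). Named regions were the 3 of smallest p in each sex and the 2 of smallest p for interaction and sex, with the 5 highest and 3 lowest folds of at least 1 kb, the 5 densest in input, the 5 longest and those in listed noncoding genes. Members and lists were chosen with earlier results of these data known. Of these, 1 region and 1 marker gene are not reported here.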

Additional observations from a re-analysis of the deposited data

Results flagged for a closer look

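In groups of 5 or 6 pools, 10 of 50 sets of values held 1 pool far from the others by Dixon's test, which chance gives in about 1 of 20. Female water pool 4 listed 81 members, and the next lowest pool of its group 466. Male water pool 1 had 470 members with an enriched island, and the next 165. The median fold of members was 1.62 in male ethanol pool 4 (next 1.19) and 0.988 in female water pool 2 (next 1.27). Among normalised ChIP reads (CPM), male water pool 3 had 69.7 at chr11:74376201-74377600 and female water pool 3 had 25.8 at chr6:114500801-114501200. At chr17:6473601-6476600, female water pool 1 had 35.9 and female ethanol pool 1 had 45.7, where islands covered 1000 and 1200 of 3000 bp. At chr17:6625201-6630600, female water pool 1 had 40.6 and female ethanol pool 2 had 22.6, where islands covered 1600 and 1000 of 5400 bp. The part of the covered length in these values was not tested.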

How the results depend on the processing

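The number of members depended on the rule: 2065 at 11 lists or more, 67 at 20, 7 at 22, 6 with islands of FDR at most 0.01, 366 with an H3K9me3 limit of 6 lists and 256 of at least 1 kb. Long noncoding genes within 5 kb gave 20.7% in place of the share overlapping one. Members called in males were 1 of 16 without TMM factors (8.38% of runs), 0 of 44 with islands of FDR at most 0.01 and missing islands as 0 (1.7% of runs), and, in settings added after seeing the data, 16 of 211 and 14 of 219 without pools that listed few members or stood highest (4.63% and 4.4% of runs). In females they were 2 of 30 by limma on ChIP over input (375 of 7666 runs) and 2 of 30 per covered base (added, 341 of 7665 runs). With the FDR limit they were 1 of 81 in females (0.223% of runs). For the interaction they were 0 of 7 without TMM factors (7.58% of runs) and 0 of 576 with missing islands as 0 (236 of 18422 runs). With the FDR limit they were 77 of 247, where 28.4% of all 10200 runs were called and the median over all runs was -1.19. There 204 runs, 1 of them a member, passed an adjusted p of 0.05 (edgeR). For sex, 3 of 247 members were called with that limit (0.569% of runs). Called input reads were 15 of 211 and 19 of 219 in males under the added settings (3.96% and 4% of runs). In females, of 30, they were 0 by DESeq2, 2 without TMM factors (2.73% of runs) and 2 per covered base. The cause of these moves was not tested. With the replicate block, 2 of 30 members were called in females for ChIP (249 of 7665 runs) and 2 for input reads. No other call count moved by over 1.5 times with the block, and the library difference of male enrichment was -0.08. Leaving out each pool gave 3 to 5 calls in males, among 16 to 68 members tested. It gave 5 of 20 without male ethanol pool 6 (416 of 7414 runs) and 4 of 68 without male ethanol pool 1 (349 of 7665 runs). In females it gave 0 to 2 calls, among 30 to 153 members. For the interaction it gave 1 to 4, among 7 to 11 members, with 1 of 10 without male ethanol pool 1 (295 of 5552 runs). For input reads it gave 2 to 6 in males (6 without male ethanol pool 1) and 0 to 3 in females. It gave differences of -0.220 to 0.009997 (reversed without male water pool 1) and -0.165 to -0.0419 in male and female enrichment, and of -133.2 to -33.5 (the last without male water pool 1) and -69.4 to 1.08 (reversed without female water pool 5) in enriched members of males and females. Named differences reversed at chr6:114608001 in males (0.0532, limma), and per covered base at chr17:6473601 in males (0.0883) and chr6:114590401 between sexes (-0.0129). Reads outside islands were not analysed.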
